A study of Mus musculus with 3 samples.

Results

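GLI3 peaks were described over the HoxD gene cluster and the 2 Mb of mouse chromosome 2 around it (mm10, peak summits from 73.7 to 75.7 Mb). Members were chosen by position alone, as every listed peak whose summit fell in this window. They numbered 91 of the 17149 peaks in the list. By the annotated ends of its genes (GENCODE M21) the cluster ran from Evx2 to Hoxd1, chr2:74652991-74765142. It held 44 of these peaks, the centromeric flank before Evx2 held 22 and the telomeric flank beyond Hoxd1 held 25. The genes considered were Evx2, Hoxd13, Hoxd12, Hoxd11, Hoxd10, Hoxd9, Hoxd8, Hoxd4, Hoxd3 and Hoxd1.

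The peaks came from chromatin immunoprecipitation and sequencing (ChIP-seq) of GLI3 in forelimb buds of mouse embryos at E10.5, at 32 to 35 somites. There were 2 ChIP replicates and 1 input library, with 2 litters of limb buds in each reaction and 15 cycles of PCR. All embryos had a mixed strain background and are labelled wild type in genotype, while the methods of the study describe an endogenous Gli3 3XFLAG allele, with the epitope at the N-terminus, against which the ChIP was done. No untagged or mutant group was among the samples, so the only background was the input. The single peak list was taken as a joint call on both replicates, which it does not itself state, and it gives no value for either, so no value below has a replicate error and no difference was tested. In whole limb buds, a site bound in more cells and a site bound more strongly in each cell cannot be told apart.

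HoxD genes encode homeodomain transcription factors that are switched on in the order in which they lie, from Hoxd1 toward Hoxd13. In the limb, enhancers in the gene-poor telomeric flank drive the first phase of transcription, in the future arm and forearm, and those in the centromeric flank drive the second, in the digits. Sonic hedgehog from the posterior margin promotes the posterior pattern of the 5′ genes (Hoxd10 to Hoxd13), and GLI3, the main repressor of the Hedgehog pathway, limits it anteriorly.

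Peaks with a false discovery rate (FDR) under 0.05, the threshold of the study, are referred to as called. Of the 91 members, 44 were called (48.4%, 95% Wilson interval 38.4 to 58.5), against 42.5% of the whole list. Such intervals cover only the counting error over peaks. The share was 40.9% in the centromeric flank (9 of 22), 50% in the cluster (22 of 44) and 52.0% in the telomeric flank (13 of 25). The background of 42.5% lay inside the interval of each of these shares, so the share called was no result about the locus. At an FDR under 0.01, 29 of the 91 were called (31.9%), beside 28.9% of the whole list. The number of peaks per length was above the average of the genome. The cluster held 19.6 called peaks per 100 kb, against 0.275 in the genome without assembly gaps, a ratio of 71.3. With listed peaks under 1 kb apart merged, called or not, the cluster held 13 called regions and the ratio was 47.1. The centromeric flank held 0.944 per 100 kb (a ratio of 3.43) and the telomeric flank 1.39 (a ratio of 5.06). Called peaks covered 9.67% of the bases of the cluster, against 0.131% of the genome.

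**Figure D1:**
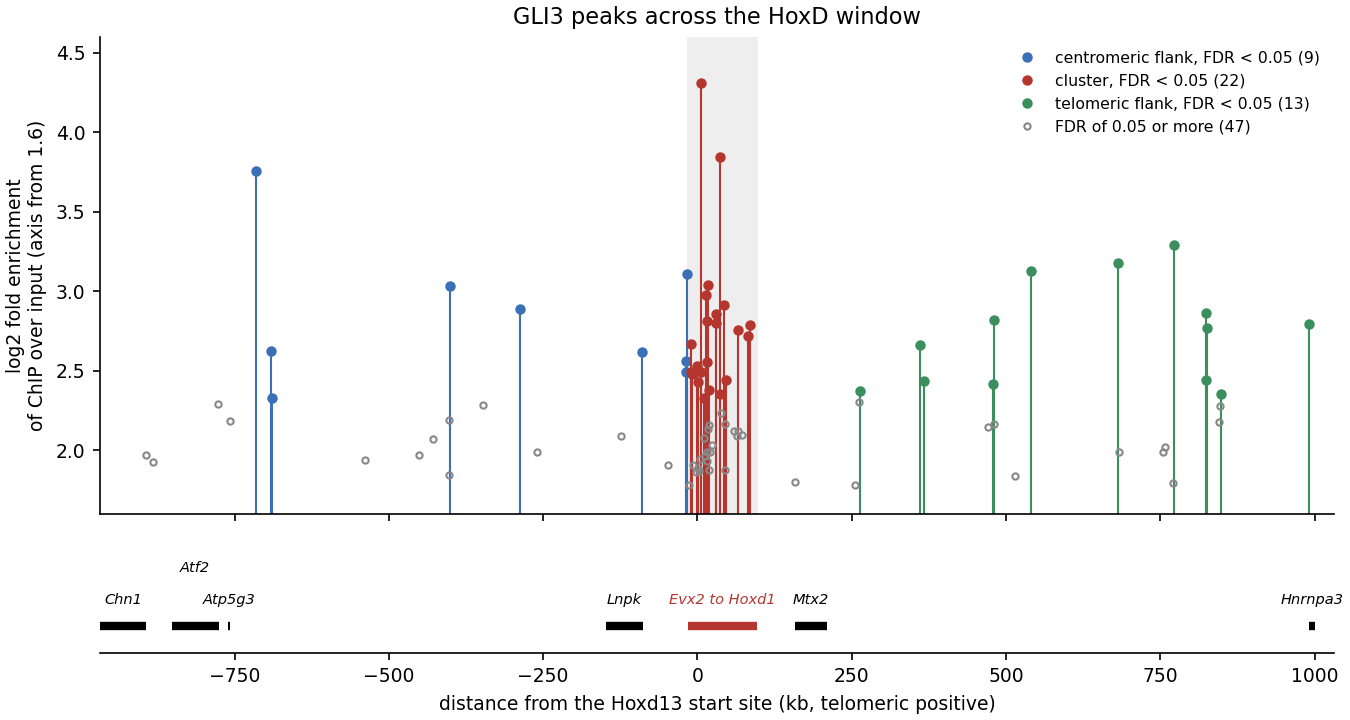
Maximum log2 fold enrichment of ChIP over input for each of the 91 listed peaks against the distance of its summit from the Hoxd13 start site in kb, with protein-coding genes drawn below and the cluster shaded. Filled points on stems are called peaks (9 centromeric, 22 in the cluster, 13 telomeric), which are crowded in the shaded cluster and scattered singly or in small groups on either side, and open points are the 47 that were not called.

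The sequence at 7 summits is shown because it carries the main contrasts of the locus. The peaks ranked 119 and 359 in the whole list were the strongest of the cluster, and those ranked 450 and 1146 the strongest of the 2 flanks. The remaining peaks, with the one ranked 119, are the 4 called members with a match to the GLI consensus within 50 bp of the summit. Each run is 251 bases of the plus strand of GRCm38 centred on the summit. Capitals mark a match to GACCACCCA or its reverse complement TGGGTGGTC with at most 1 mismatch, and the runs of the strongest flank peaks hold none.
Peak ranked 119, upstream of Hoxd12, chr2:74673817-74674067: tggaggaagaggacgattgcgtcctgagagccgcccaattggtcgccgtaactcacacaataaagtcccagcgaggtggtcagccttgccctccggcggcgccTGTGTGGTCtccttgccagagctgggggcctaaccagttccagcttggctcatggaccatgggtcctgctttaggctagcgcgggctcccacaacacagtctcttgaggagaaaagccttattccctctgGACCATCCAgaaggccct
Peak ranked 359, at the start of Hoxd8, chr2:74704677-74704927: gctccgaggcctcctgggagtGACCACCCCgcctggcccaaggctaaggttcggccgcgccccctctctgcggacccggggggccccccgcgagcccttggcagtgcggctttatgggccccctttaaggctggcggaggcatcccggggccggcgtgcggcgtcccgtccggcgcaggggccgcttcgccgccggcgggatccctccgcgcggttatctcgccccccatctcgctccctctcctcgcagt
Peak ranked 1633, beyond the 3′ end of Evx2, chr2:74650977-74651227: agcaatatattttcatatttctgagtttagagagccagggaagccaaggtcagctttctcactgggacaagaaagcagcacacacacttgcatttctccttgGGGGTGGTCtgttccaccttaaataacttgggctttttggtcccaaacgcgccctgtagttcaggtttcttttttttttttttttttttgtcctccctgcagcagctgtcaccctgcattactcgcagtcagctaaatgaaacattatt
Peak ranked 5274, beyond the 3′ end of Evx2, chr2:74650022-74650272: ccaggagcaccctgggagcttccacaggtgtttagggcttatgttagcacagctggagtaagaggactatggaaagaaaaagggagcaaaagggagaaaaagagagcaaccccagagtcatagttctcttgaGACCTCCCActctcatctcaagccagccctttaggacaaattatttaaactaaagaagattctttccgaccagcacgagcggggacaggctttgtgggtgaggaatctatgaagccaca
Peak ranked 450, the strongest of the centromeric flank, chr2:73952557-73952807: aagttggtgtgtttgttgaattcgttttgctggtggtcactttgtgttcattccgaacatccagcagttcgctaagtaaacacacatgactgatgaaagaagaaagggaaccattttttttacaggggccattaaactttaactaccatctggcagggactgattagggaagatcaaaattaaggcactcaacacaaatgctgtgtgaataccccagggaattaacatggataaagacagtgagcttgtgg
Peak ranked 3825, in the telomeric flank, chr2:75029287-75029537: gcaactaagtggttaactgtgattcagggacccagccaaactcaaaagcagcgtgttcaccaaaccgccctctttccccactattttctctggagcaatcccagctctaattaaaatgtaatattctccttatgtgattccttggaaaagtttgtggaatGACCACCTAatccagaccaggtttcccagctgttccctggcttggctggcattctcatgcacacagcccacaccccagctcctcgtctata
Peak ranked 1146, the strongest of the telomeric flank, chr2:75439797-75440047: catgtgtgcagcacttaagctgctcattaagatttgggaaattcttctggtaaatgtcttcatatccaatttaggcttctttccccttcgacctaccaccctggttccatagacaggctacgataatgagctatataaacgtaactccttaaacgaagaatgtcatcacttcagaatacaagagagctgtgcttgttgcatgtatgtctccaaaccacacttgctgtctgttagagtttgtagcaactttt

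In the 5′ part of the cluster, peaks lay at the start of nearly every gene. Evx2, a homeobox gene of the even-skipped family transcribed away from Hoxd13, had 1 called peak at its promoter, taken as 2 kb before to 1 kb after a protein-coding start site. It was chr2:74659150-74659899, with a log2 fold enrichment of 2.48 and its summit 140 bp upstream of the outer of its coding starts. A pair of called peaks lay in its gene body, at chr2:74657300-74657549 (2.49) and chr2:74657700-74657949 (2.67). Their windows shared the same GLI match, CACCACCCA (G1C, with positions counted from 1 at the 5′ end of the consensus).

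Hoxd13, the last gene to be switched on and the main HoxD gene of the digits, had 2 called promoter peaks, neither of them strong. The summit of chr2:74667950-74668449 was 22 bp inside the gene from its start (log2 2.53, FDR 0.00706), in coding sequence. The second, chr2:74668800-74668999, lay 677 bp inside (2.43, FDR 0.0208). Both were below the median of all called peaks, 2.69 (interquartile range 2.47 to 3.06).

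The strongest peak of the window lay between Hoxd13 and Hoxd12, a gene of the posterior limb bud. At chr2:74673400-74674099, it ranked 119 by the T statistic, with a log2 fold enrichment of 4.31, and exceeded 98.4% of all called peaks. Its summit was intergenic, 1071 bp upstream of the Hoxd12 start. The nearest GLI match was GACCACACA (C7A), on the minus strand with its centre 18 bp from the summit. A second match, GACCATCCA (C6T), lay 112 bp on the other side. The next called peak, chr2:74674200-74674349, was small (2.49), and its window held this second match again, so these neighbours are not independent.

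Hoxd11, which with its HoxA counterpart shapes the forearm bones, had more called peaks in its span than any other of the 10 genes as listed. Within this span, which begins upstream of the coding start site, there were 10 listed and 6 called peaks. With listed peaks under 1 kb apart merged, called or not, the 6 fell into 2 regions, as many as in the Hoxd3 span. Some of these called peaks lay more than 1 kb apart and were joined only through uncalled peaks between them. The strongest was chr2:74685150-74685499 (log2 3.04, rank 1891), 2959 bp inside the gene from the coding start. The next was chr2:74681600-74682499 (2.97, rank 2162), 196 bp upstream of that start. The other 4 had values of 2.33, 2.81, 2.55 and 2.38 in order along the chromosome. None of the 6 windows held a GLI match. Of the called peaks near this gene, 4 also lay within 2 kb of a start of Gm28309, a non-coding transcript that runs from Hoxd11 into Hoxd10.

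Hoxd10 had no called peak at its promoter. The only listed peak there had a log2 fold enrichment of 2.04 and an FDR of 0.438, and the nearest called summit was 5292 bp from the start. The interval between called summits around it was 11.2 kb, beside a median of 2405 bp in the cluster. Hoxd9, one of the group 9 genes needed for the posterior identity of the forelimb, had called peaks at chr2:74697550-74698049 (2.80, 135 bp inside the gene) and chr2:74698500-74699199 (2.86, 1295 bp inside). The neighbours Hoxd10 and Hoxd9 thus had 0 and 2 called promoter peaks, or 0 and 1 regions with peaks under 1 kb apart merged.

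The second strongest peak of the cluster was at Hoxd8, a gene better known for its role along the trunk. It was also the longest called peak of the window, 1100 bp at chr2:74704050-74705149, with a log2 fold enrichment of 3.84 and rank 359. Its summit lay 103 bp upstream of a coding start site, and a match GACCACCCC (A9C) was centred 100 bp from the summit. The adjacent chr2:74705350-74705799 was just inside the FDR threshold (2.35, FDR 0.0374).

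Toward the 3′ end, where the genes pattern the hindbrain and neck, peaks were fewer. Hoxd3 had 2 called promoter peaks, chr2:74711550-74712099 (2.91, 170 bp upstream of a start) and chr2:74734450-74734849 (2.75, 1863 bp upstream of another). Another called peak, chr2:74714550-74714899 (2.44), lay inside the span that Hoxd3 shares with Hoxd4. Hoxd4 has 2 coding starts in the annotation. The only listed promoter peak, 653 bp from the downstream start, was uncalled (2.12, FDR 0.233), and the nearest called summits were 7321 bp from the upstream and 7578 bp from the downstream start. The annotated spans of both genes begin within a few bases of each other, so the peak at the upstream Hoxd3 start cannot be assigned to Hoxd3 alone. Hoxd1, at the 3′ end of the cluster, had no listed peak at its promoter or in its body. The nearest called summit to it was 9788 bp upstream, in chr2:74753050-74753349 (2.79), and the next one beyond the gene was 168 kb away.

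The last called peaks of the cluster lay within non-coding genes. Haglr, a long non-coding RNA gene transcribed away from Hoxd1 toward Hoxd3, held 2 in its span. The peak in its exon, chr2:74749200-74750049, had a value of 2.72 and the other, chr2:74753050-74753349, also lay within 2 kb of the starts of Gm14424 and Gm14426. Hoxd3os1, antisense to Hoxd8 and the Hoxd3 start, had 2 called peaks within 2 kb of a start (best 2.91). Gm28793, antisense to the region before Hoxd9, had 2 (best 2.86) and the miRNA gene Gm44463 had 1 (2.86). ChIP reads carry no strand, so a peak near a coding and a non-coding start cannot be assigned to either.

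**Figure D2:**
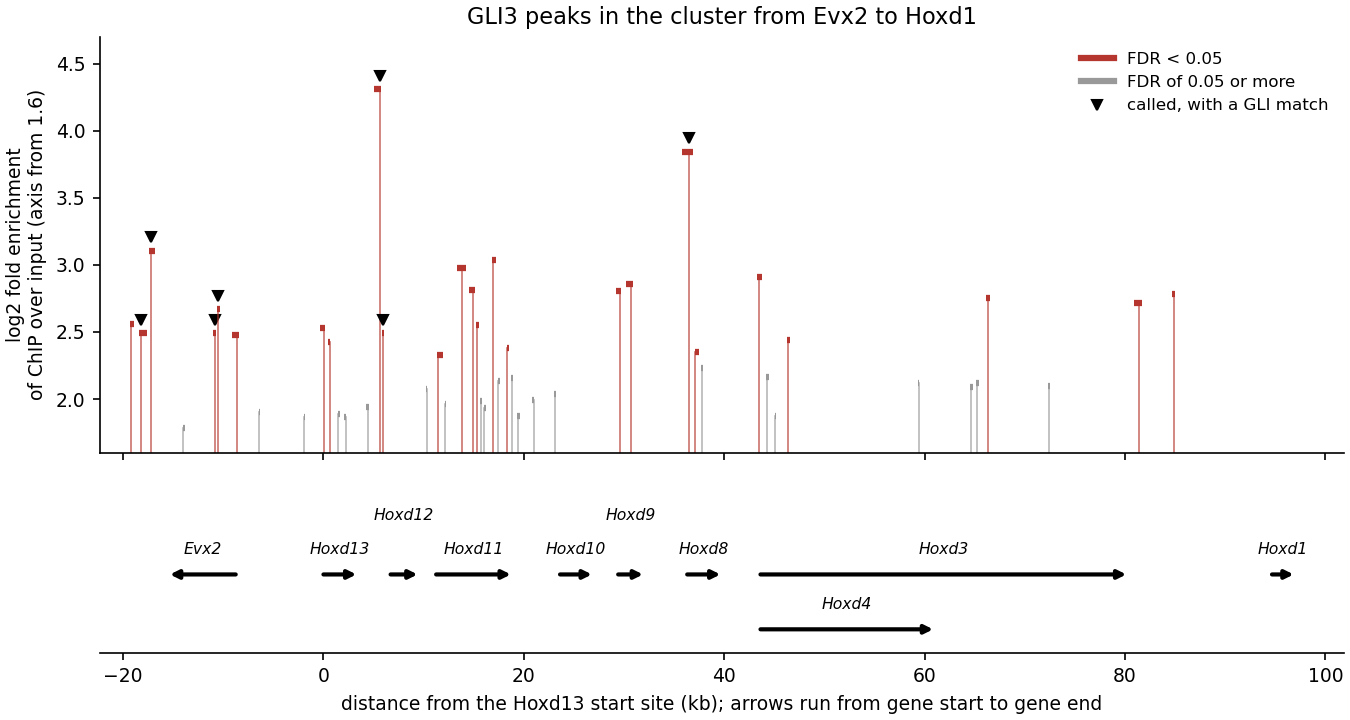
Listed peaks across the cluster and a few kb on either side, by distance from the Hoxd13 start site in kb, drawn as horizontal bars of their listed length at their maximum log2 fold enrichment of ChIP over input, with stems at the summits and gene arrows below. Called peaks are red, uncalled ones grey, and black triangles mark called peaks with a GLI match. The 2 tallest stand upstream of Hoxd12 (4.31) and at Hoxd8 (3.84), and none stands at Hoxd10 or Hoxd1 above the threshold.

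Of the 10 genes, 7 had at least 1 called promoter peak (6 of these had 2) and 3 had none, Hoxd10, Hoxd4 and Hoxd1. Over all 21827 protein-coding genes, 17.2% had at least 1 called promoter peak and 2.13% had 2 or more. With peaks under 1 kb apart merged, 7 of the 10 genes still had a called promoter region, but 1, Hoxd3, had 2, beside 0.321% of all genes with 2 or more. As listed, peaks were more frequent toward the 5′ end. From the start of the Evx2 span to the Hoxd8 start there were 15 called peaks in 51.6 kb, or 29.1 per 100 kb. From there to the end of Hoxd1 there were 7 in 60.5 kb, or 11.6 per 100 kb. The share of listed peaks called was 50% on both sides, and the medians of the called peaks were 2.55 and 2.75. With listed peaks under 1 kb apart merged, called or not, the counts were 7 and 6 (13.6 and 9.91 per 100 kb). On the 5′ side, in the Hoxd11 span, this also joined called peaks more than 1 kb apart through uncalled peaks between them. The difference between the 2 sides was not tested. The boundary and the merging were chosen after the values were seen. The widest intervals between called summits inside the cluster were 19995 bp, inside the Hoxd3 span, and 15.0 kb, running from that span to just beyond it.

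The centromeric flank had the fewest called peaks per length of the 3 subregions, and 3 of its 9 called peaks stood just beyond the 3′ end of Evx2. They were chr2:74649000-74649399 (2.56), chr2:74649950-74650749 (2.49) and chr2:74650950-74651499 (3.11, rank 1633). The last 2 held GLI matches near their summits. The match in the peak ranked 1633 was GACCACCCC (A9C) on the minus strand, 19 bp from the summit, and the nearest in the peak ranked 5274 was GACCTCCCA (A5T), 11 bp away. With these 3, moving each boundary of the cluster out by 5 kb raised its count from 22 to 25.

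The strongest centromeric peak was far from any HoxD gene. Chr2:73952550-73953049 ranked 450 (log2 3.75, above 93.8% of called peaks) and lay 716 kb from the Hoxd13 start. It was intergenic, 41356 bp upstream of the start of Atp5g3, a subunit gene of the mitochondrial ATP synthase. Nearby stood chr2:73977600-73977999 (2.62, with the match AACCACCCA, G1A) and chr2:73978300-73978549 (2.33, at the threshold). After 288 kb without a called peak, the widest such gap of the window, came chr2:74266500-74266799 (3.03, rank 1913) and chr2:74380750-74381249 (2.89), both intergenic. The remaining centromeric peak was at the promoter of Lnpk, which encodes an endoplasmic reticulum protein, at chr2:74578900-74579099 (2.62). It also overlapped the start of the antisense gene 4930445N08Rik.

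The telomeric flank held 13 called peaks in a looser series. The first, chr2:74930850-74931049, was weak (2.37) and followed a gap of 178 kb that spans Hoxd1 and Mtx2, a gene for mitochondrial protein import. Further out were chr2:75029400-75029699 (2.66, with GACCACCTA, C8T, 39 bp from the summit) and chr2:75034850-75035449 (2.44, with GACCACCCT, A9T, 82 bp away). A pair at chr2:75147400-75147699 (2.42) and chr2:75147850-75148499 (2.82) lay in the non-coding gene A330043C09Rik. In an intron of the non-coding gene 2600014E21Rik was chr2:75209050-75209799 (3.13, rank 1560). The 2 strongest were chr2:75349050-75349499 (3.18, rank 1405), upstream of Gm37243, and chr2:75439550-75440149 (3.29, rank 1146), in an intron of the non-coding gene Gm13658. Beyond them stood 3 called peaks close together, with values of 2.87, 2.44 and 2.77, and the weak chr2:75515900-75516249 (2.35). The last of the window, chr2:75659300-75659749 (2.79), was at the promoter of Hnrnpa3, an RNA-binding protein gene.

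The other protein-coding genes with a start site in the window were mostly without a called peak. Lnpk and Hnrnpa3 had 1 each at their promoters. Chn1 (FDR 0.727), Atf2 (FDR 0.0704), Atp5g3 (FDR 0.133), Mtx2 (FDR 1) and Gm28230, an overlapping gene model in the Hoxd3 span (FDR 0.233), had a listed promoter peak that was not called. Called promoter peaks were thus at 7 of the 10 HoxD genes and 2 of the 7 others, beside 17.2% of all protein-coding genes.

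The subregion with the most peaks per length did not have the highest median. The median log2 fold enrichment of called peaks was 2.62 in the centromeric flank, 2.69 in the cluster (interquartile range 2.48 to 2.85) and 2.77 in the telomeric flank, beside 2.69 over all called peaks. Of the 44 called members, 3 (6.82%) ranked among the 1000 highest peaks of the list, those ranked 119, 359 and 450, beside 13.7% of all called peaks. The Poisson value listed beside the rank (−log10 of p, as the caller gave it) was 70.7, 57.2 and 41.9 in these 3, and its median was 14.8 over the 44, beside 16.6 over all called peaks. The 10 highest were spread over the window, with 4 in the cluster, 3 in the centromeric and 3 in the telomeric flank. Values near the threshold were close together. Just inside it were the peaks ranked 7000, in the Hoxd11 span, and 7001, in the centromeric flank, both at 2.33 and an FDR of 0.0374. Just outside was the telomeric peak ranked 7398, at 2.30 and an FDR of 0.0704. The 47 uncalled members ranged from 1.78 to 2.30.

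**Figure D3:**
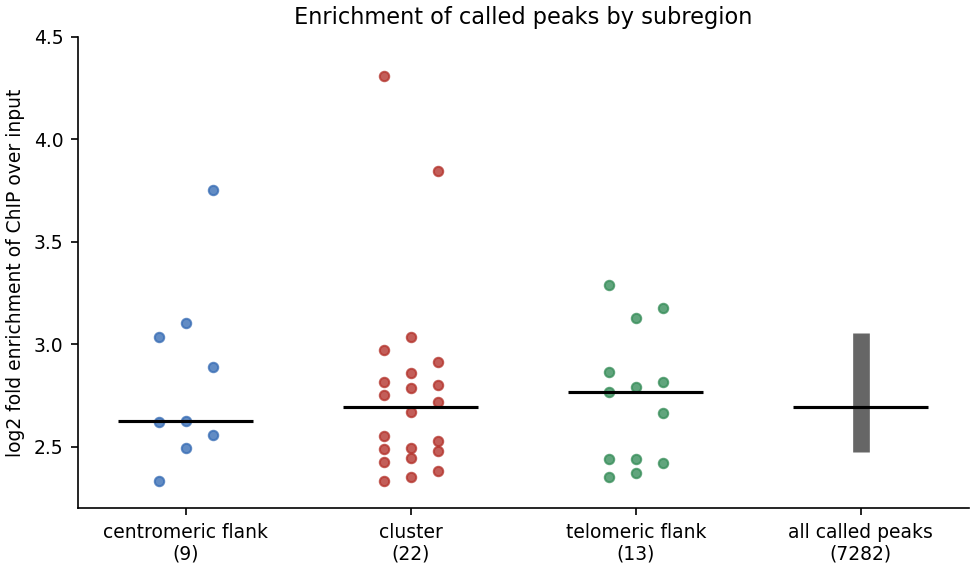
Maximum log2 fold enrichment of ChIP over input of each called peak (points, spread sideways for visibility) in the 9 centromeric, 22 cluster and 13 telomeric peaks, with the median as a line, beside the median and interquartile range (grey bar) of all 7282 called peaks. The medians of 2.62, 2.69 and 2.77 all lie inside the grey bar.

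Called peaks of the flanks and the cluster lay in different kinds of sequence. In the cluster 13 of 22 overlapped a promoter (59.1%, 38.7 to 76.7), near the 52.6% of all called peaks, and in the flanks 2 of 22 did (9.09%, 2.53 to 27.8). Median GC content in the 250 bp to either side of the summit was 56.8% in the cluster, 45.1% in the flanks and 58.7% over all called peaks. The ratio of observed to expected CpG was 0.782 in the cluster and 0.352 in the flanks. By annotation of the summit, 16 of the 22 flank peaks were intergenic, 4 lay in non-coding genes and 2 in introns of coding genes.

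GLI matches were as frequent as in the list at large. With at most 1 mismatch, 10 of the 44 such windows held a match (22.7%, 12.8 to 37.0), beside 20.8% of all called peaks. In windows 2 kb to either side of the same summits the share was 14.8% (13 of 88). Since called peaks lay close together, 15 of these 88 windows touched another called peak or its summit window, or the peak itself. In the 73 free of called peaks the share was 13.7% (10 of 73, 7.61 to 23.4), beside 10.4% for windows of the same kind over the whole list. The exact consensus was in 0 of the 44 windows, with an upper 95% Wilson bound of 8.03%, and in 2.84% of all called peaks. It was in 2 of the 47 uncalled members. The 10 windows held 12 matches at 10 separate places, since neighbours shared a match in Evx2 and again upstream of Hoxd12. Neither the strongest centromeric nor the strongest telomeric peak held one. In RefSeq promoters (GRCm38.p6, 250 bases before to 50 after a start), all 10 genes were found with 11 promoters, 0 of which held a match, beside 6.74% of 32851 promoters. A match is a description of the letters, and its absence says nothing on binding.

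Other motifs were searched in the same windows on both strands. The posterior HOX motif CAATAAA was in 9 of 44 (20.5%, 11.2 to 34.5), beside 6.56% of all called peaks. In the windows 2 kb to either side it was in 19.3% (17 of 88), and in 13.7% (10 of 73, 7.61 to 23.4) of those free of called peaks, beside 10.2% for such windows over the whole list. Among peaks away from promoters its share was 17.2% in the HoxD window and 11.3% in the whole list. The HOX-PBX motif TGATTNAT was in 7 of 44 (15.9%, 7.93 to 29.4), beside 9.59% in the free windows to either side and 5.73% of all called peaks. Away from promoters the shares were 10.3% in the HoxD window and 10.02% in the whole list. In the cluster and the flanks separately, the posterior HOX motif was in 22.7% and 18.2% of called windows and the HOX-PBX motif in 22.7% and 9.09%. GC boxes (GGGCGG) were in 20 of 44 (45.5%), beside 57.1% of all called peaks, and 14 of these 20 lay in the cluster. Away from promoters the order was the other way, with 34.5% in the HoxD window and 27.8% in the whole list, and in the free windows to either side the shares were 20.5% and 9.14%. The CTCF motif, searched with 0 mismatches allowed, was in 0 of 44, with the same upper bound of 8.03%, beside 0.632% of all called peaks. At so low a share, 0 of 44 does not show that these peaks lack CTCF sites.

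**Figure D4:**
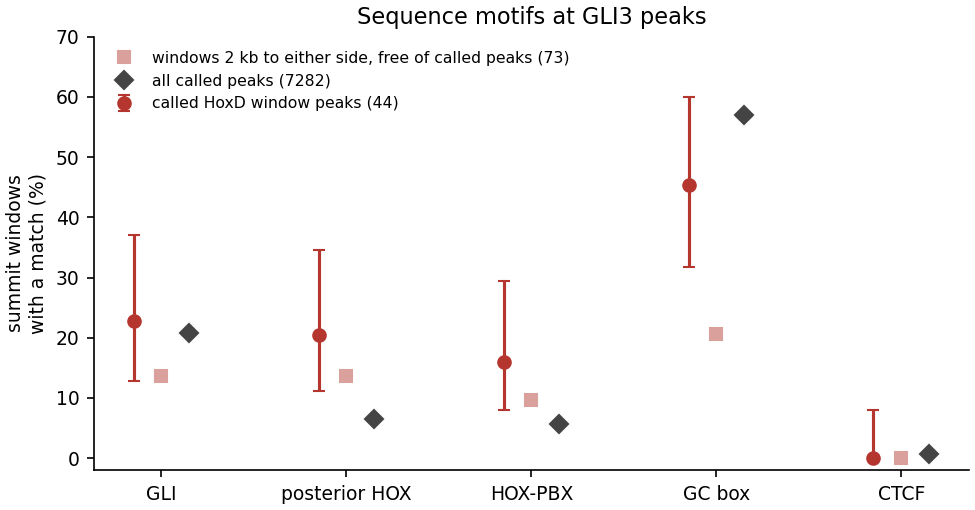
Percentage of windows (250 bp to either side of a centre) with a match to each of 5 motifs in the 44 called HoxD window peaks (circles, with 95% Wilson intervals), in the 73 windows 2 kb to either side of them that touch no called peak (squares) and in all 7282 called peaks (diamonds). For GLI the circle (22.7%) and the diamond (20.8%) are close, and for the posterior HOX motif the square (13.7%) lies inside the interval of the circle (20.5%).

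The 3 other Hox clusters, bounded the same way (with Evx1 for HoxA), were the closest comparison. HoxD had the most called peaks per length. Its 19.6 per 100 kb compared with 11.1 in HoxA (18 called), 8.05 in HoxB (14) and 4.32 in HoxC (5). With peaks under 1 kb apart merged, these were 11.6, 6.14, 6.32 and 4.32 per 100 kb for HoxD, HoxA, HoxB and HoxC. In listed peaks HoxD and HoxA were closer, at 39.2 and 35.6 per 100 kb. The share called was 50% in HoxD (35.8 to 64.2) and 31.0% in HoxA (20.6 to 43.8), beside 42.5% of the whole list. It was 40.0% in HoxB (25.6 to 56.4) and 18.5% in HoxC (8.18 to 36.7). The 42.5% lay inside the intervals of HoxD, HoxA and HoxB and above that of HoxC. The interval of HoxC overlapped that of HoxD only at its edge, and overlap does not show that shares are alike. The strongest peak of HoxD (4.31) was below that of HoxB (4.51) and above those of HoxA (4.19) and HoxC (3.998). GLI matches were in 5 of 22 called windows of HoxD (22.7%, 10.1 to 43.4), where 2 pairs of windows shared a match, and in 3 of 18 of HoxA (16.7%, 5.84 to 39.2). They were in 0 of 14 of HoxB (upper bound 21.5%) and 0 of 5 of HoxC (upper bound 43.4%), beside 20.8% of all called peaks. Outside the clusters, in the rest of a 2 Mb window, HoxD held 22 called of 47 listed peaks (46.8%), HoxA 11 of 31 (35.5%), HoxB 22 of 40 (55.0%) and HoxC 23 of 42 (54.8%), beside 42.5% of the whole list. The flanks of HoxD had the lowest promoter share of the 4, with 2 of 22 called peaks at promoters (9.09%, 2.53 to 27.8). The share was 27.3% for HoxA (3 of 11, 9.75 to 56.6), 68.2% for HoxB (15 of 22) and 52.2% for HoxC (12 of 23). The intervals of HoxD and HoxA overlapped widely. None of these differences was tested.

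**Figure D5:**
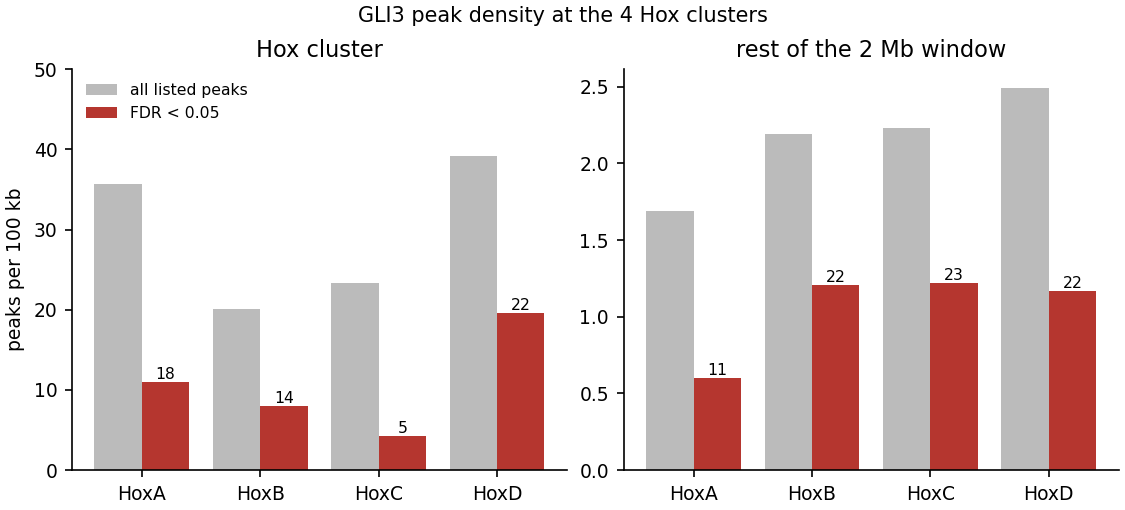
Listed (grey) and called (red) GLI3 peaks per 100 kb in the 4 Hox clusters (left) and in the rest of a 2 Mb window around each (right, on a different scale), with the number of called peaks above each red bar. HoxD has the tallest red bar among the clusters (22 peaks, 19.6 per 100 kb), and the red bars of HoxB, HoxC and HoxD in the right panel are nearly level.

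Set against fixed tiles of the genome, the locus was at the upper end. Among 1322 tiles of 2 Mb, the median held 3 called peaks and 285 held 0. The tile from 74 to 76 Mb of chromosome 2, which takes in the cluster, held 44, and the next highest held 38, on chromosome 10 and on chromosome 11, where the tile takes in HoxB. On a fixed grid of tiles of the length of the cluster, HoxD was divided between 2 tiles with 16 and 9 called peaks, and the highest of the 24288 tiles elsewhere held 17. Counts of this kind depend on where the tile edges fall.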

How the data were processed

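One deposited peak list was analysed, from GLI3-FLAG ChIP-seq of E10.5 mouse forelimb buds (2 ChIP replicates and 1 input). GEO holds it under the first ChIP replicate. It was taken as a joint call, since the study's methods describe peak calling with CisGenome on 2 biological replicates. The submitters' processing notes name mm10 and Bowtie2 2.2.5. The list gives no read totals, so the depth behind each peak is unknown here and intervals cover counting error over peaks only. For each peak the deposited list gives an FDR (a q-value computed by the authors), the authors' maximum log2 fold enrichment of ChIP over input, the deposited T statistic (a score with no fixed range, which sets the rank) and the authors' −log10 of the smallest Poisson p-value. Peak lengths were multiples of 50 bp. Coordinates are printed as listed. Whether they count from 0 or 1 is not given in the sources used here. Sequence was read as if from 1, so offsets may be wrong by 1 base.

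Peaks were assigned by summit with Python 3.11.15, pandas 2.3.3, scipy 1.17.1 and pysam 0.24.0, which were checked on simulated data. Start sites came from GENCODE M21 and sequence from GRCm38.p6, without the 5 peaks listed on unplaced contigs where a position was needed. Named genes were the 10 members, the protein-coding genes starting in the window, the non-coding genes starting within 2 kb of a called peak and, for comparison, the other Hox clusters. Non-coding genes that only hold a summit (2600014E21Rik, A330043C09Rik, Gm13658) were named after values were seen. The rule for single peaks (10 highest T, strongest of each subregion and promoter, those beside the threshold) was widened to the other called peaks. The members, lists and measures were chosen with earlier results of these data known. Alternatives changed the FDR threshold, the boundaries, merging, the motif rule and its window, the promoter interval and the order of ranking.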

Additional observations from a re-analysis of the deposited data

How the results depend on the processing

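All values rest on 1 joint list, so the spread between embryos is unknown. No paired analysis was possible because no value belongs to a single replicate, and leaving out each replicate could not be run for the same reason. Of 35 alternatives over 9 results, 22 moved the value by less than the limits set (1.5 times for a count, the interval otherwise) and 13 moved it by more. At an FDR under 0.01 the window held 29 called peaks, the cluster 14, and the share called was 31.9%, beside 28.9% of the whole list. With every listed peak the counts were 91 and 44, and the median log2 fold enrichment was 2.28 in the cluster and 2.29 in the flanks. Merging listed peaks under 1 kb apart, called or not, left 13 called regions in the cluster and a density ratio of 47.1 over the genome. Chosen after seeing the data, merging left 7 called regions in place of 15 before the Hoxd8 start and 6 in place of 7 after it. It also left 2 in place of 6 in the Hoxd11 span, and 1 gene in place of 6 with 2 called promoter regions. The share of windows with a GLI match was 0% for the exact consensus and 81.8% with up to 2 mismatches (82.7% of all called peaks). The strongest peak ranked 218 by Poisson p-value and 241 by length. The alternatives changed which peaks or letters were counted, how neighbouring peaks were joined, or the order of ranking. Why the values moved was not tested.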
